A study of Canis lupus familiaris with 37 samples.

Results

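In 37 canine RNA-seq libraries, 68 genes were expressed in every sample of the B-cell lines CLBL-1 and CLBL-1M and in no sample of the T-cell lines OSW and CL-1. They were chosen by their library-size-scaled counts (CPM, the count divided by all gene reads of the sample and put on a common scale): at least 10 CPM, called on, in all 10 CLBL-1 and CLBL-1M samples, and below 1 CPM, called off, in all 4 OSW and both CL-1 samples. Of 32704 annotated genes, 7997 were on in all 10 CLBL samples and 71 met both limits. Of these, 1 gene was left out as a class II major histocompatibility gene and 2 as microRNA or long non-coding RNA genes listed by the study, which left 68. The levels in these 4 lines are therefore given as a description and support nothing further. The readouts of interest are the samples that the choice did not use: the GL-1 line, the controls and the lymphomas.

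B lymphocytes carry an antigen receptor, a surface immunoglobulin coupled to signaling chains, and present antigen to T cells. Lineage transcription factors switch on the genes for this receptor and its signaling proteins and keep them on in most mature B cells. T cells use a different receptor and keep some of these genes silent. Lymphomas and the lines grown from them often, but not always, keep the genes of the lineage they arose from, and a non-neoplastic lymph node holds B-cell follicles and T-cell zones side by side.

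The series held 12 multicentric B-cell lymphomas, 1 T-cell lymphoma and 3 intestinal lymphomas, all naturally occurring in dogs, and 4 non-neoplastic lymph nodes as controls. The lines were cultured without treatment: CLBL-1 (5 samples), grown from a diffuse large B-cell lymphoma, CLBL-1M (5), grown from a CLBL-1 xenograft tumour in mouse, GL-1 (1), listed by the study as a B-cell lymphoma line, and OSW (4) and CL-1 (2), from T-cell lymphomas. Samples of a line share 1 origin, and nothing in the labels says that they were separate cultures, so their spread may be technical. The lineage of the intestinal lymphomas was uncertain by flow cytometry, and their site and their lymphoma type cannot be told apart. From their expression in these same data, the study labelled them probable T-cell lymphomas and joined them with the T-cell lymphoma. Here they are kept apart by title, and joining them is an alternative.

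The labels conflicted in places, and the groups used here are those of the sample titles. Control replicate 4 had a T-cell line as its source, and its share of reads that fell on more than 1 gene, 0.476%, lay in the range of the cell lines (0.363% to 0.549%) rather than that of the other tissue samples (0.0977% to 0.229%). It had 55 of the 68 genes on, against 52, 53 and 53 in the other controls. The flow cytometry field disagreed with the titles for all 4 controls, for B-cell lymphomas 1, 3, 6, 10 and 12, for the T-cell lymphoma, for intestinal lymphomas 2 and 3 and for both CL-1 samples. Gene reads ranged from 1962722 to 4863730 per sample, so 3 reads stood for 0.617 to 1.53 CPM and levels near the off limit rest on few reads.

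The genes go by Ensembl identifiers. The study's supplement is described as giving symbols for its differentially expressed protein-coding genes, but these were not looked up. The label of a B-lineage readout was therefore not checked against named marker genes. Functional terms in shortened lists from the study, themselves built from genes that differed in these samples, covered 18 of the 68. ENSCAFG00000007963 and ENSCAFG00000012677 stood under B cell receptor signaling, ENSCAFG00000007036 under hematopoietic cell lineage and immunoglobulin domain, ENSCAFG00000008234 and ENSCAFG00000008804 under antigen processing and presentation, and ENSCAFG00000018386 under hemopoiesis. The terms are given as background only.

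Non-neoplastic lymph nodes and B-cell lymphomas expressed most of the 68 genes, and intestinal lymphomas, the T-cell lymphoma and GL-1 expressed a minority. In the controls 52, 53, 53 and 55 genes were on. In the 12 B-cell lymphomas the lowest number was 47, the median 48 and the highest 57. In the intestinal lymphomas 19, 18 and 20 genes were on, in the T-cell lymphoma 24, and in GL-1 16. No B-cell lymphoma or control overlapped an intestinal lymphoma, the T-cell lymphoma or GL-1 in this count. For comparison, of the 7997 genes on in all CLBL samples, 94.7% were on in GL-1, 93.4% in the T-cell lymphoma and 87.6% in all 3 intestinal lymphomas, against 23.5%, 35.3% and 14.7% of the 68. The 68 also lay below that background in the other tissues: 72.1% of them were on in all 4 controls, against 90.8% of the 7997, and 36.8% in all 12 B-cell lymphomas, against 85.7%. Unlike the 7997, the 68 were also chosen to be off in the T-cell lines. A lower share of the 68 elsewhere is therefore favoured in advance, and the 7997 are no matched background.

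**Figure D1:**
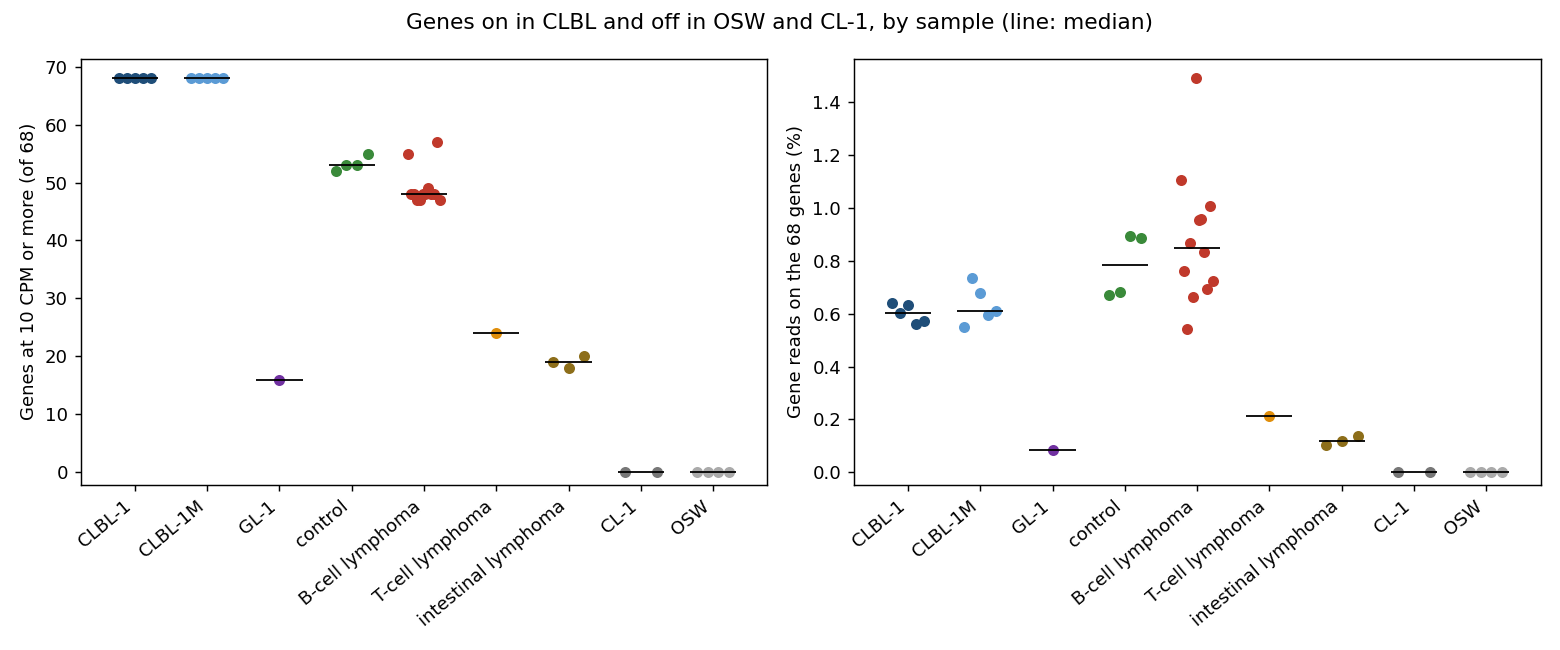
Number of the 68 genes at 10 CPM or more (left, axis from 0 to 68) and percent of all gene reads that fell on them (right) in each of 37 samples, 1 point a sample, with a line at the group median. CLBL-1, CLBL-1M, CL-1 and OSW are fixed by the choice of genes. The 4 controls and 12 B-cell lymphomas lie at 47 to 57 genes, and GL-1, the T-cell lymphoma and the 3 intestinal lymphomas at 16 to 24.

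The share of all gene reads on the 68 genes separated the same samples. It was 0.671%, 0.683%, 0.895% and 0.888% in controls 1 to 4, and 0.542% to 1.49% with a median of 0.850% in the B-cell lymphomas. The intestinal lymphomas had 0.103%, 0.117% and 0.137%, the T-cell lymphoma 0.214% and GL-1 0.0846%. In bulk RNA, fewer cells of a type and less RNA per cell cannot be told apart, and this holds for every difference between tissues given here. As a mirror, 115 genes met the reverse rule, on in all OSW and CL-1 samples and off in all CLBL samples. Of these, 76 to 84 were on in the controls, 19 to 55 in the B-cell lymphomas, 55, 47 and 71 in the intestinal lymphomas, 56 in the T-cell lymphoma and 54 in GL-1. In this count the B-cell and intestinal lymphomas overlapped, through B-cell lymphoma 7 at 55 and intestinal lymphoma 2 at 47. The share on among all genes that are on in the T-cell lines was not computed, so these counts are a description only.

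**Figure D2:**
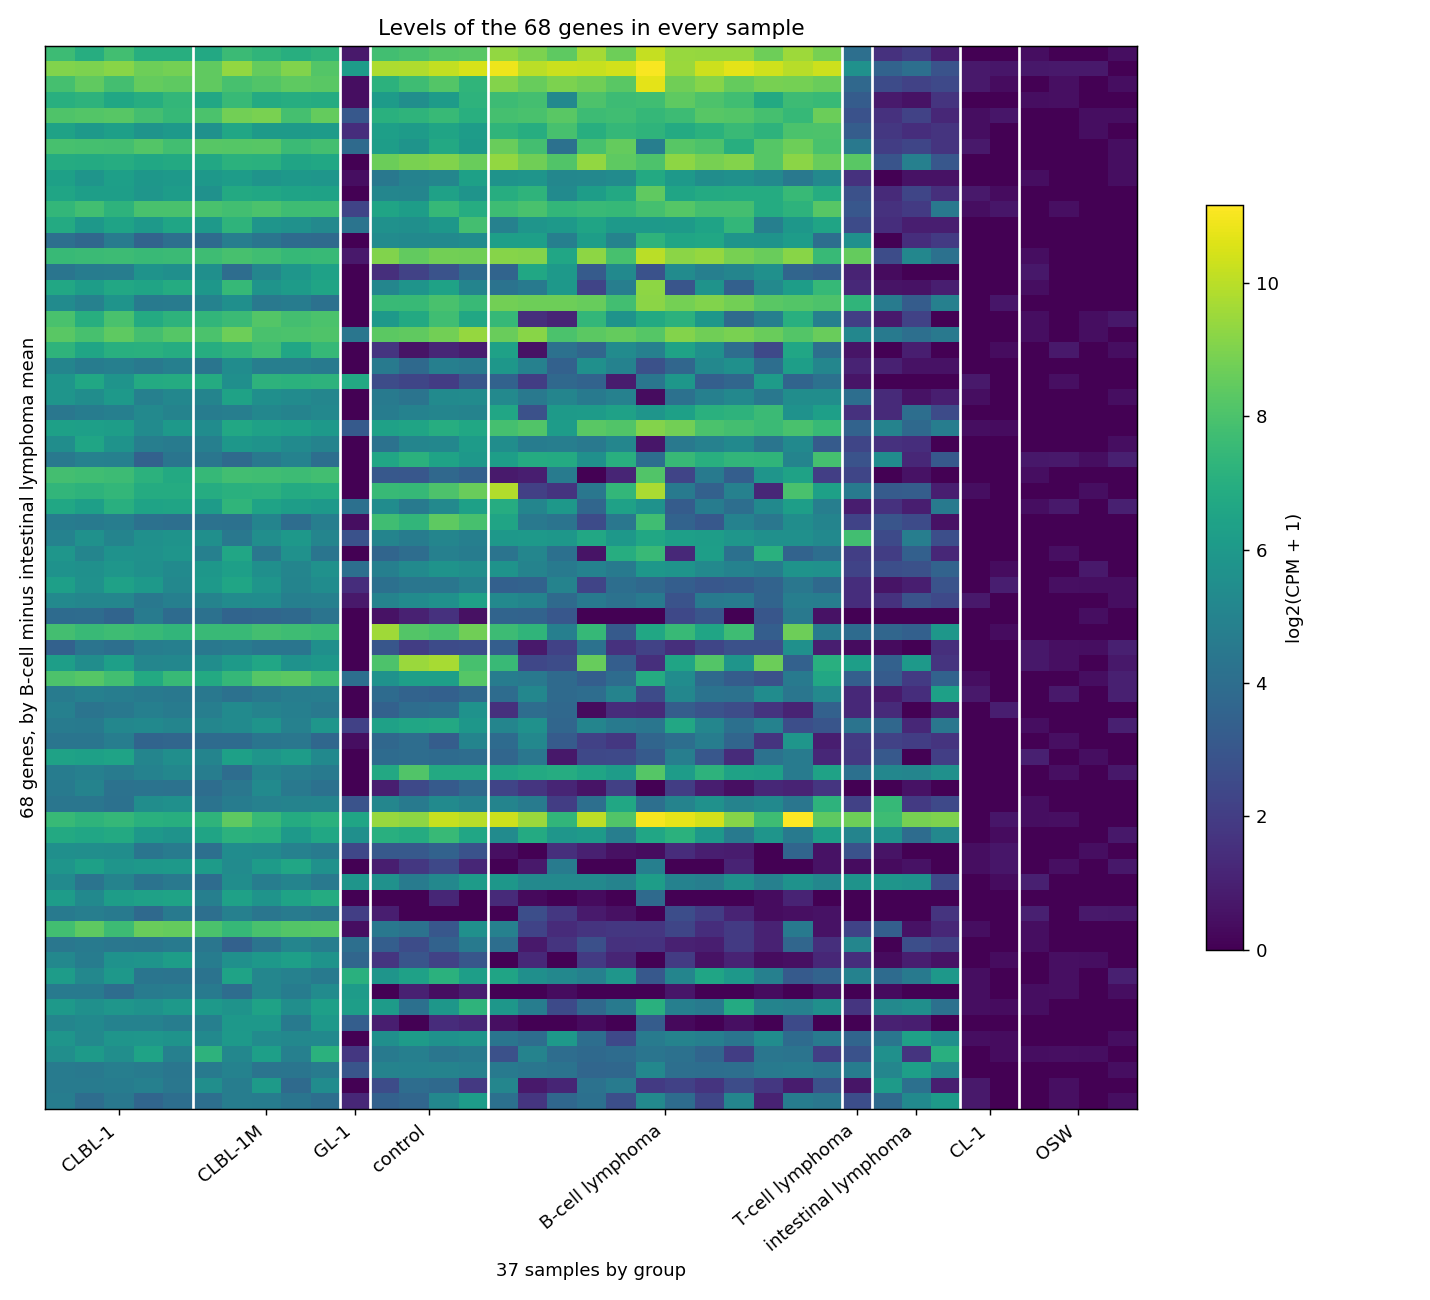
Levels of the 68 genes (1 per line, ordered by the B-cell minus intestinal lymphoma mean) in 37 samples (columns by group), as log2(CPM + 1), dark for 0 and bright for high. The upper genes are bright in controls and B-cell lymphomas and dark in intestinal lymphomas and mostly in GL-1, while genes in the lower part vary from sample to sample.

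B-cell lymphomas against intestinal lymphomas asked how far the set separates lymphomas titled B-cell from those titled intestinal, in samples that the choice did not use. At an adjusted p of at most 1e-05 (edgeR quasi-likelihood test, Benjamini-Hochberg over 15162 genes), 18 of the 68 genes were higher in B-cell lymphomas, against 0.983% of all genes tested, and 0 were lower, against 2.95%. At an unadjusted p under 0.05, 48 were higher and 5 lower, against 16.0% and 22.4% of all genes. DESeq2 called 29 higher and 0 lower at the same adjusted p, against 2.20% and 3.86%. At an adjusted p of 0.05 the counts were 44 higher, against 10.5% of all genes, and 3 lower, against 17.6%. The median log2 fold change was 3.31 over the 68 genes and -0.02 over all genes tested. In 23 genes every B-cell lymphoma lay above every intestinal lymphoma, against 3.67% of all genes, and in 0 genes below, against 3.02%. The spread in this test was estimated over all 37 samples, including the lines that the choice used. With the tissue samples alone in the fit, 11 genes were higher.

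The 5 largest changes past the threshold included a gene of B cell receptor signaling. ENSCAFG00000012677 stood at 334 CPM in the lowest B-cell lymphoma, 662 at the median and 1165 in the highest, and at 2.04, 3.12 and 0.897 CPM in the intestinal lymphomas. The groups lay far apart, and the log2 fold change was 8.20 (SE 0.502, adjusted p 1.04e-13, edgeR). ENSCAFG00000007963, the other receptor signaling gene, stood at 116, 214 and 303 CPM in the lowest, median and highest B-cell lymphoma. Its intestinal values were 2.04, 2.68 and 21.99 CPM, so that 1 intestinal lymphoma stood apart from the others but still below every B-cell lymphoma (log2 fold change 4.61, SE 0.476, edgeR adjusted p 5.52e-09), and the call was lost with the tissue samples alone in the fit.

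ENSCAFG00000007036, the immunoglobulin-domain gene, took the most reads in CLBL of all 68, with a median of 473 CPM. In the B-cell lymphomas it ranged from 710 to 2150 CPM, with a median of 1276, and in the intestinal lymphomas it was 10.7, 15.6 and 6.28 CPM. It stayed on in 2 of the 3 intestinal lymphomas, yet differed by a log2 fold change of 6.89 (SE 0.417, edgeR adjusted p 5.4e-14). ENSCAFG00000030966, without a term in the lists, was at 320 to 1648 CPM in B-cell lymphomas and at 4.85, 3.57 and 4.49 CPM in intestinal lymphomas (log2 fold change 6.90, SE 0.544, edgeR adjusted p 1.77e-11). ENSCAFG00000030553 and ENSCAFG00000002357 had median levels of 206 and 42.3 CPM in B-cell lymphomas and did not exceed 2.24 and 0.449 CPM in intestinal lymphomas. Their log2 fold changes were 7.44 (SE 0.627) and 7.35 (SE 0.669), both past the threshold.

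ENSCAFG00000018386, the hemopoiesis gene, was at 27.5 to 166 CPM in B-cell lymphomas and at 1.79, 0.893 and 0.897 CPM in intestinal lymphomas (log2 fold change 5.72, SE 0.739, edgeR adjusted p 8.13e-07), and this call was lost without any 1 of the 3 intestinal lymphomas. Of the 2 antigen presentation genes, neither passed. ENSCAFG00000008804 had a log2 fold change of 2.38 (SE 0.387, edgeR adjusted p 1.66e-05), and ENSCAFG00000008234 one of 2.32 (SE 0.829, edgeR adjusted p 0.0357). ENSCAFG00000002172, under small GTPase signal transduction, had no read in any intestinal lymphoma and 22.2 CPM over the pooled B-cell lymphomas, which is at least 61.9-fold higher against a floor of 3 reads over the group. Its spread among B-cell lymphomas, 0.822 to 69.2 CPM, was wide, and its edgeR adjusted p was 0.000136.

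**Figure D3:**
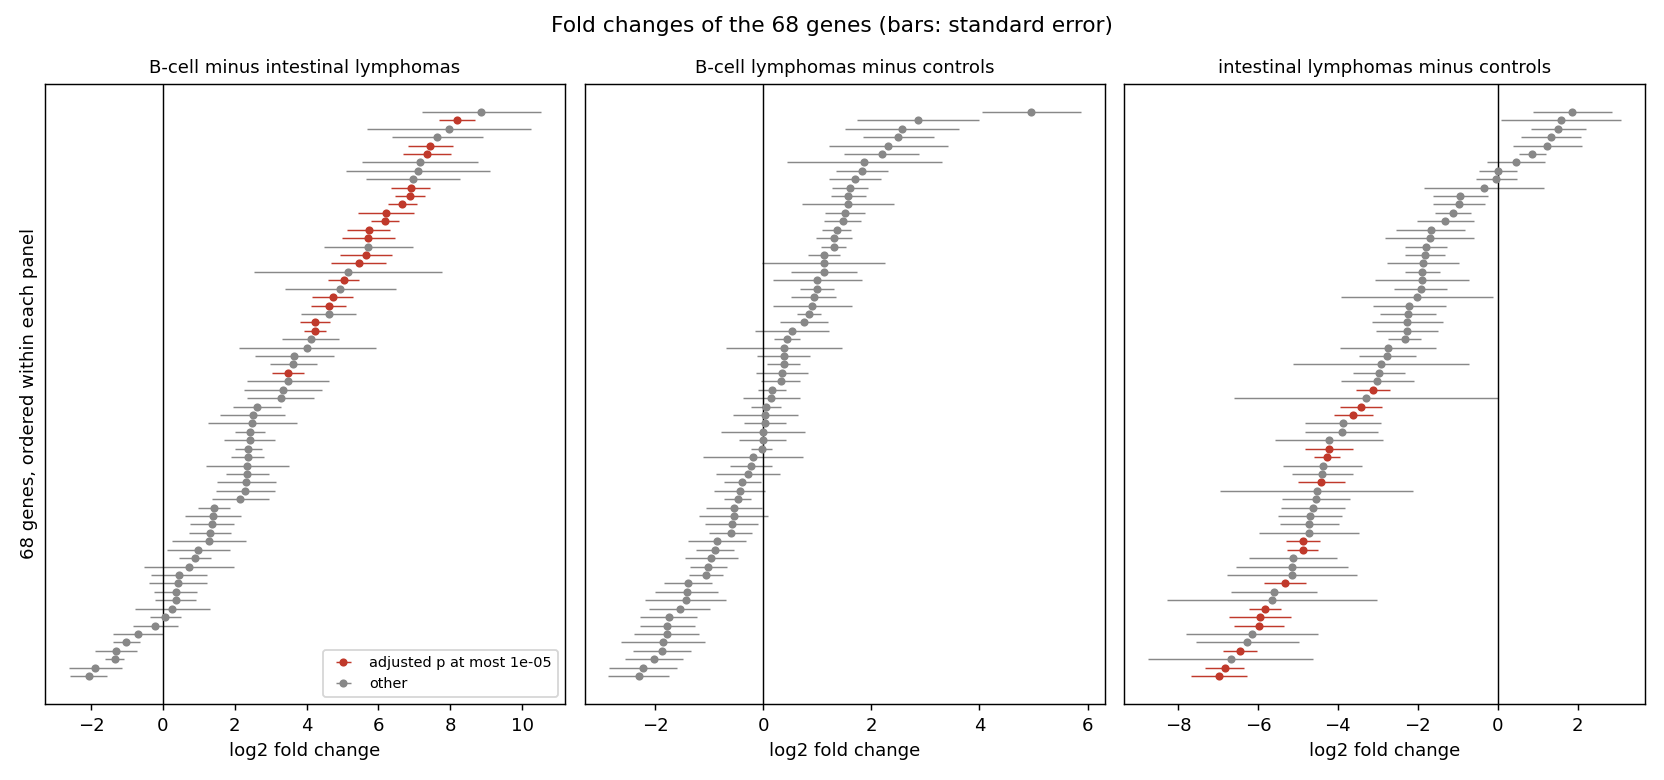
Log2 fold changes of the 68 genes in 3 comparisons, ordered within each panel, with bars for the standard error and red points at an adjusted p of at most 1e-05 (edgeR). There are 18 red points above 0 in the first panel, 0 in the second and 15 below 0 in the third, and the last 2 panels share the 4 controls.

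B-cell lymphomas against controls asked whether neoplastic B cells keep the set at the level of a lymph node. At an adjusted p of at most 1e-05, edgeR called 0 of the 68 higher, against 2.64% of all genes, and 0 lower, against 3.81%. At an unadjusted p under 0.05, 19 were higher (27.9%) and 14 lower (20.6%), close to or below the 26.7% and 27.7% of all genes. DESeq2 called 2 higher and 0 lower at the stricter adjusted p, against 3.67% and 7.39%. At an adjusted p of 0.05 the counts were 17 higher, against 23.6% of all genes, and 14 lower, against 24.9%, both close to or below the background. The median log2 fold change was 0.15. With size factors of the kind DESeq2 uses (RLE, computed in edgeR) it was -0.07. These factors moved the median of all genes from 0.01 to -0.20. In 4 genes every B-cell lymphoma lay above every control, against 5.09% of all genes, and in 0 below, against 12.7%. Without control 4 the edgeR counts were again 0 and 0.

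The 4 genes whose groups did not overlap were ENSCAFG00000008477, ENSCAFG00000012677, ENSCAFG00000013673 and ENSCAFG00000030966. ENSCAFG00000008477, under immune response, came nearest to the threshold: its controls were at 77.1, 68.3, 90.3 and 70.4 CPM and its B-cell lymphomas at 111 to 264 CPM (log2 fold change 1.30, SE 0.232, edgeR adjusted p 3.62e-05). The receptor signaling gene ENSCAFG00000012677 was at 218, 250, 299 and 312 CPM in the controls (log2 fold change 1.36, SE 0.271, edgeR adjusted p 0.000139). ENSCAFG00000013961, under the G1/S transition of the cell cycle, had the largest fold change, 4.96 (SE 0.922, edgeR adjusted p 5.9e-05). It was at 2.28, 0.509, 1.32 and 0.869 CPM in the controls and at 0.468 to 96 CPM in the B-cell lymphomas, and the 2 ranges overlapped through 1 lymphoma below 1 CPM.

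Intestinal lymphomas against controls used the same 4 controls. At an adjusted p of at most 1e-05, 15 of the 68 were lower in intestinal lymphomas, against 0.580% of all genes, and 0 were higher, against 1.30% (edgeR). At an unadjusted p under 0.05, 48 were lower and 2 higher, against 20.6% and 25.6% of all genes. DESeq2 called 25 lower and 0 higher, against 2.78% and 2.89%. At an adjusted p of 0.05 there were 44 lower, against 15.9%, and 1 higher, against 21.0%. The median log2 fold change was -3.21 over the 68 genes and 0.05 over all genes, the latter moving to -0.10 with RLE size factors. In 49 genes every intestinal lymphoma lay below every control, against 20.1% of all genes, and in 1 gene above, against 11.2%. The 15 decreases became 9 without intestinal lymphoma 1 and 6 with the tissue samples alone in the fit, and they numbered 13 without control 4.

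The 5 largest decreases past the threshold were in ENSCAFG00000002357, ENSCAFG00000012677, ENSCAFG00000007036, ENSCAFG00000018386 and ENSCAFG00000030553. The receptor signaling gene ENSCAFG00000012677 fell by 6.83 on the log2 scale (SE 0.494, edgeR adjusted p 2.2e-11) and the immunoglobulin-domain gene ENSCAFG00000007036 fell by 6.44 (SE 0.421, edgeR adjusted p 1.83e-12). ENSCAFG00000002357 was at 21.4, 30.1, 34.3 and 80.4 CPM in controls and at 0, 0.446 and 0.449 CPM in intestinal lymphomas, a log2 fold change of -6.98 (SE 0.696, edgeR adjusted p 1.94e-08). In none of these 3 genes did the groups overlap. The calls of ENSCAFG00000002357 and ENSCAFG00000030553 were lost with the tissue samples alone in the fit. The decrease of ENSCAFG00000018386 was a log2 fold change of -5.94 (SE 0.773, edgeR adjusted p 2.31e-06), with 227 CPM in control 4 against 45.9 to 59.0 CPM in the other controls, and its call was lost without any 1 intestinal lymphoma. Of the 68 genes, 8 had a fold change above 0, and the one that passed an adjusted p of 0.05 was ENSCAFG00000001946, at 31.0, 30.1, 31.0 and 28.2 CPM in controls and 33.7, 77.7 and 34.5 CPM in intestinal lymphomas (log2 fold change 0.86, SE 0.332, edgeR adjusted p 0.0406).

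A minority of the 68 genes were also expressed in the intestinal lymphomas, where 18 were on at the median. ENSCAFG00000000426 was the highest of them, at 206, 469 and 516 CPM, against 692, 611, 1180 and 1001 CPM in controls and 160 to 2286 CPM in B-cell lymphomas, so the intestinal values lay within the range of the B-cell lymphomas and below every control. ENSCAFG00000000876 was at 56.2, 50.0 and 4.49 CPM, with 26.6 to 72.6 CPM in B-cell lymphomas, and 1 intestinal lymphoma stood below the rest. ENSCAFG00000015190 was at 47.5, 2.23 and 130 CPM in intestinal lymphomas and 3.13 to 30.9 CPM in B-cell lymphomas, with 2 intestinal lymphomas above every B-cell lymphoma and 1 below. ENSCAFG00000016416 was at 19.9, 83.0 and 46.2 CPM in intestinal lymphomas and ENSCAFG00000004779 at 13.3, 38.4 and 66.0 CPM, in both cases overlapping the B-cell lymphomas (4.52 to 62.9 and 1.12 to 37.2 CPM).

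The T-cell lymphoma, a single sample with no replicate check, kept 24 genes on, 12 off and 32 in between. The off genes were 17.6% of the 68. Of the 7997 genes on in all CLBL samples, which are no matched background, 0.888% were off there, and of genes with at least 1 count 46.7%. Its log2(CPM + 1) lay 2 or more below the mean of the controls in 42 of the 68 genes, against 13.0% of all genes tested, and 2 or more above in 1 gene, against 3.59%. Every B-cell lymphoma lay above it in 29 genes, against 14.2% of all genes, and below it in 2, ENSCAFG00000013673 and ENSCAFG00000034478, against 18.01%. ENSCAFG00000013673 was at 221 CPM, against 38.4 to 103 CPM in B-cell lymphomas and 31.9, 24.5, 32.6 and 26.9 CPM in controls. ENSCAFG00000034478 was at 33.5 CPM, against 0.701 to 15.3 CPM in B-cell lymphomas. Among genes singled out after their values were seen, ENSCAFG00000011474 and ENSCAFG00000010480 were at 361 and 312 CPM in the T-cell lymphoma, within the ranges of the B-cell lymphomas, but at no more than 34.4 and 28.1 CPM in the intestinal lymphomas. The T-cell lymphoma lay above every intestinal lymphoma in 28 of the 68 genes (41.2%), against 26.3% of all genes.

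GL-1, listed by the study as a B-cell lymphoma line, expressed few of the genes that its fellow B-cell lines defined. In its 1 sample 16 genes were on, 38 were off and 14 lay between. The off genes were 55.9% of the 68. Of the 7997 genes on in all CLBL samples 2.33% were off in GL-1, and of genes with at least 1 count 44.5%. The 7997 were not chosen to be off in any line, so this contrast is a description only. Of the 38, 29 had no read, which at this depth allows up to 1.05 CPM. Its log2(CPM + 1) lay 2 or more below the mean of the controls in 50 of the 68 genes, against 16.2% of all genes tested, and 2 or more above in 3, against 6.93%. In 28 genes GL-1 was off although the median of the B-cell lymphomas was on, and in 13 both were on. The shares of all genes with these patterns were not computed.

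Among the genes low in GL-1 were both receptor signaling genes, ENSCAFG00000012677 at 0.701 CPM and ENSCAFG00000007963 at 3.85 CPM. Each lay below every B-cell lymphoma and every control. Of the 20 genes found under this term in the study's shortened lists, 14 were on in GL-1 and 4 off. The immunoglobulin-domain gene ENSCAFG00000007036 remained on at 70.8 CPM, below the lowest B-cell lymphoma and above the highest intestinal lymphoma. The highest genes in GL-1 were ENSCAFG00000032530 at 134 CPM, the small GTPase signaling gene ENSCAFG00000002172 at 104 CPM, ENSCAFG00000000426 at 92.8 CPM, ENSCAFG00000016596 at 76.4 CPM and ENSCAFG00000007036. ENSCAFG00000002172 was in the range of CLBL (45.4 to 149 CPM) and above every B-cell lymphoma and control.

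The study's list for B cell receptor signaling, available in shortened form, held 20 genes, including the pair above, and others may be missing. It was built from genes that differed in these samples and is no independent evidence of direction. Of the 20, 17 were on in all 10 CLBL samples. Of those 17, 15 reached 1 CPM or more in at least 1 OSW or CL-1 sample, so only 2 met the rule. Against intestinal lymphomas, 5 of the 20 were higher in B-cell lymphomas and 2 lower at an adjusted p of at most 1e-05 (edgeR), with a median log2 fold change of 1.07. Against controls, 0 were higher and 2 lower in B-cell lymphomas, and 0 higher and 4 lower in intestinal lymphomas. The shares of all genes tested are those given above for each comparison at this threshold. ENSCAFG00000017303, singled out after its values were seen, missed the rule through 1 value of 1.24 CPM in a T-cell line and had a log2 fold change of 7.36 (edgeR adjusted p 2.28e-16) between B-cell and intestinal lymphomas. It stood at 0.701 CPM in GL-1, where ENSCAFG00000002171 and ENSCAFG00000005873 of the same list, also singled out afterwards, stood at 500 and 306 CPM.

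**Figure D4:**
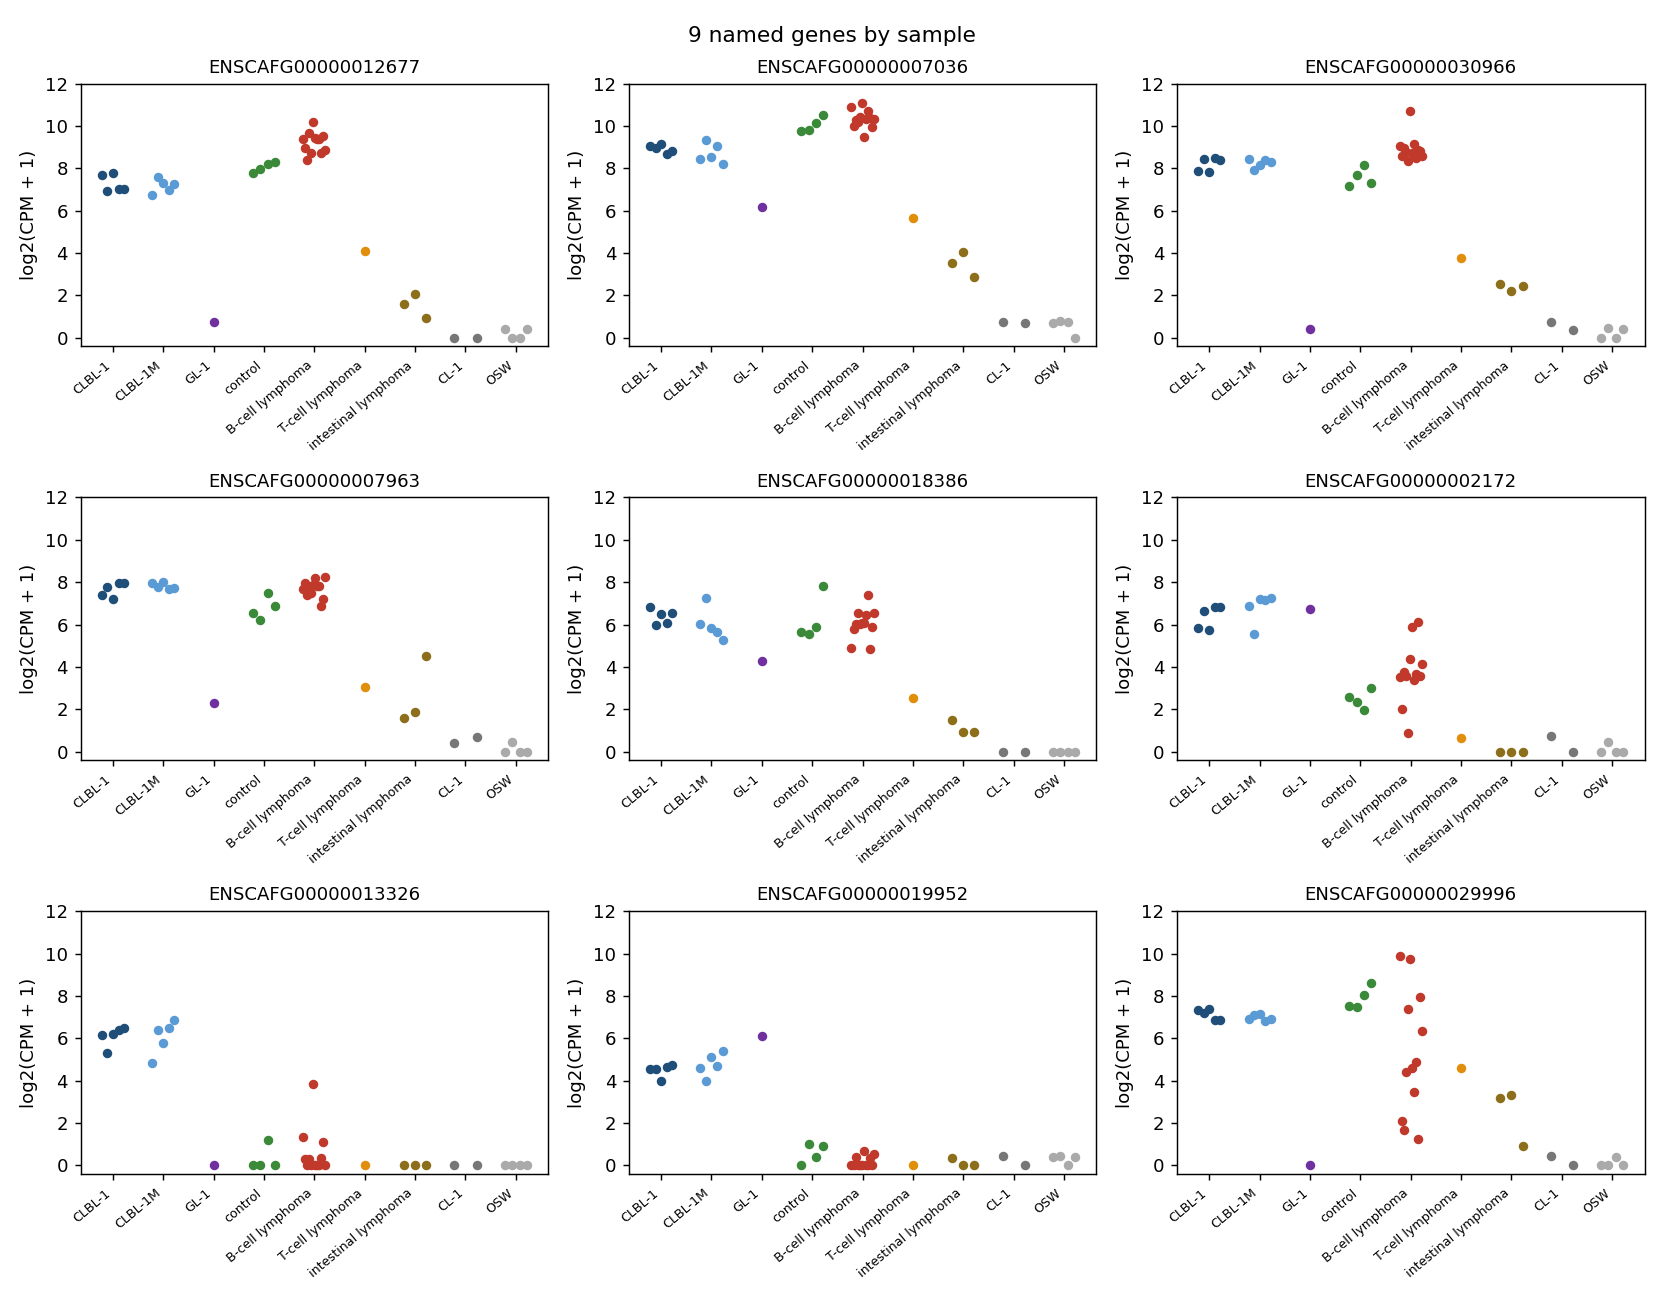
Levels of 9 of the 68 genes in each sample by group, as log2(CPM + 1), 1 point a sample. The top row and the first 2 panels of the middle row show genes high in controls and B-cell lymphomas and low in intestinal lymphomas, ENSCAFG00000002172 and ENSCAFG00000019952 are on in GL-1, ENSCAFG00000013326 is near 0 in most tissue samples, and ENSCAFG00000029996 spreads from 1.40 to 935 CPM among B-cell lymphomas.

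The B-cell lymphomas also differed among themselves. All 12 had 25 of the 68 genes on, the 36.8% given above, and 17 genes, or 25.0%, were on in some and off in other B-cell lymphomas, against 6.85% of all genes tested. The largest SD of log2(CPM + 1) was in ENSCAFG00000029996, which ranged from 1.40 to 935 CPM with a median of 25.99, against 182, 178, 265 and 389 CPM in controls. ENSCAFG00000028509 ranged from 1.83 to 404 CPM, with controls at 266, 707, 832 and 242 CPM. ENSCAFG00000024889 ranged from 0 to 283 CPM, and its controls lay between 7.13 and 12.5 CPM. ENSCAFG00000016462, under extracellular exosome, and ENSCAFG00000031733 ranged from 0.491 to 190 and from 1.25 to 179 CPM. In these 5 genes the spread between lymphomas was wider than that between the 4 controls, which is a description of genes chosen for their spread.

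Of the 68 genes, 3 were below 1 CPM at the median in both B-cell lymphomas and controls. ENSCAFG00000013326, under locomotion, had a median of 78.01 CPM in CLBL but no read in any intestinal lymphoma, in the T-cell lymphoma or in GL-1, and only 1 B-cell lymphoma was on, at 13.4 CPM. ENSCAFG00000019952 did not exceed 0.617 CPM in B-cell lymphomas and 1.02 CPM in controls, yet stood at 67.96 CPM in GL-1 and 23.6 CPM at the median of CLBL. ENSCAFG00000031502 was at 13.04 to 27.8 CPM in CLBL and at 0 to 5.38 CPM in B-cell lymphomas. In each of the 3, at most 1 tissue sample was on.

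Within CLBL, where the choice fixes the direction, the highest of the 10 samples was 2.41 times the lowest at the median of the 68 genes and 5.66 times at most. The median over the 68 genes of the CLBL-1 minus CLBL-1M difference in log2(CPM + 1) was 0.03, with single genes from -0.97 to 0.81. After ENSCAFG00000007036, the genes with the most reads were ENSCAFG00000030966, ENSCAFG00000013048, ENSCAFG00000029396 and ENSCAFG00000006576, at median levels of 322, 280, 272 and 265 CPM. ENSCAFG00000029396 was the one of these that stood far lower in both B-cell lymphomas and controls. It was at 0.452 to 29.1 CPM in B-cell lymphomas and 21.4, 17.3, 7.25 and 47.8 CPM in controls. The median of the B-cell lymphomas lay below that of CLBL in 44 genes, by 2 or more on the log2(CPM + 1) scale in 20. It lay above in 24, by 2 or more in 5. The choice asked for at least 10 CPM in CLBL only, which favours lower levels elsewhere in advance. The shares of all genes were not computed, so these counts show no loss in B-cell lymphomas.

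Close to the limits, the lowest CLBL value of a chosen gene was 10.06 CPM, in ENSCAFG00000028754, followed by ENSCAFG00000034478 and ENSCAFG00000009786 at 10.1 CPM. The nearest genes outside, ENSCAFG00000012859, ENSCAFG00000023035 and ENSCAFG00000012424, reached 9.70, 9.52 and 9.49 CPM. On the other limit, ENSCAFG00000000876, ENSCAFG00000004297 and ENSCAFG00000031502 reached 0.952 CPM in a T-cell line sample, and ENSCAFG00000020105, ENSCAFG00000017184 and ENSCAFG00000005691 missed it at 1.02, 1.02 and 1.03 CPM.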

How the data were processed

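The study sequenced polyadenylated RNA of 37 samples, reading 100 bases from both ends of each fragment. Per the study's methods and the submitters' processing notes, the authors mapped reads to CanFam3.1 with BWA, removed duplicates and poor mappings with Picard and SAMtools, and counted reads per Ensembl gene with HTSeq 0.6.1, so the deposited values are raw counts. The strand setting is not given in the sources used here, so overlapping and antisense genes cannot be told apart. Of all counted reads, 68.0% to 82.9% fell on no gene and were left out of totals.

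CPM were computed from gene counts. Differences were tested with edgeR 4.0.16 in R 4.3.3 (quasi-likelihood, TMM, 1 fit of 9 groups over 37 samples) on 15162 genes whose highest CPM exceeded the 40th percentile, at a Benjamini-Hochberg adjusted p of at most 1e-05 as in the study. The cut lay at 6.69 CPM, so all 68 genes passed by the rule itself, and 65 passed on tissue alone. DESeq2 1.42.0 was the alternative, and GL-1 and the T-cell lymphoma, with 1 sample each, were not tested. The most alike replicates, CLBL-1 1 and 3, did not agree within sampling noise (chi-square per degree of freedom 1.351), which does not show separate cultures. Line samples enter the estimate of the spread, and the fit on tissue alone leaves them out. On simulated counts of 15162 genes, B-cell against intestinal lymphomas recovered 47% of changes of log2 2 and 70.5% of log2 3. B-cell lymphomas against controls recovered 54% and 74%. The simulation gave every group the same mean apart from 200 changed genes, whereas the 68 genes differ widely between groups. The members and lists were chosen with earlier results of these data known. Named genes were, besides those marked as chosen after their values were seen, the 5 largest changes in each direction of each comparison, the 5 highest in CLBL, intestinal lymphomas and GL-1, the 5 most variable in B-cell lymphomas, those off in B-cell lymphomas and controls, and those nearest the limits. ENSCAFG00000001946, ENSCAFG00000007963, ENSCAFG00000008234, ENSCAFG00000008477, ENSCAFG00000008804, ENSCAFG00000013673 and ENSCAFG00000013961 were named after their values or terms were seen, and their alternatives were added then. Marker lists by symbol and promoter motifs were not used. The identifiers could not be matched to the reference table, and the symbols in the study's supplement were not looked up.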

Additional observations from a re-analysis of the deposited data

Results flagged for a closer look

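Of 113 sets of values from groups of 4 or 5 samples, 11 held 1 sample far from the others, where chance flags about 1 in 20. CLBL-1M replicate 2, the CLBL sample with the fewest gene reads, was the one in 5: ENSCAFG00000006576 at 416 CPM, ENSCAFG00000016416 at 64.1, ENSCAFG00000018386 at 152, ENSCAFG00000030553 at 181 and ENSCAFG00000032530 at 86.8 CPM. The others were ENSCAFG00000009786 at 45.5 CPM in CLBL-1M replicate 5, ENSCAFG00000016416 at 37.05 in CLBL-1 replicate 2, ENSCAFG00000031502 at 13.04 in CLBL-1 replicate 4 and at 0.913 in control replicate 1, ENSCAFG00000013326 at 1.32 in control replicate 3, and ENSCAFG00000018386 at 227 CPM in control replicate 4, the control whose source label conflicts. The values of ENSCAFG00000031502 in control replicate 1 and ENSCAFG00000013326 in control replicate 3 rest on 2 and 4 reads. The other controls had no read of these genes, and the rate of 1 in 20 need not hold at such counts.

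The change against the shared controls differed between B-cell and intestinal lymphomas in 10 named genes. The test was the direct edgeR test between the lymphomas, at an adjusted p of at most 1e-05. It is the comparison already given above, and named genes were picked partly for large changes in it. The 10 therefore add no separate result. Of all genes tested, 0.983% were higher and 2.95% lower in B-cell lymphomas at this threshold. The log2 differences were 8.20 for ENSCAFG00000012677, 7.44 for ENSCAFG00000030553, 7.35 for ENSCAFG00000002357, 6.90 for ENSCAFG00000030966, 6.89 for ENSCAFG00000007036, 6.67 for ENSCAFG00000013048, 6.18 for ENSCAFG00000008477, 5.72 for ENSCAFG00000018386, 4.61 for ENSCAFG00000007963 and 4.24 for ENSCAFG00000006576. Tissue site and lymphoma type cannot be told apart here.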

How the results depend on the processing

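Limits of depth: 3 reads stand for about 1 CPM, so values near the off limit are uncertain, and 1 sample each of GL-1 and the T-cell lymphoma allows no test. The 68 genes became 44 at an on limit of 20 CPM and 35 at an off limit of 0.5 CPM, and 75, 98 and 99 with TMM-scaled sizes, an on limit of 5 and an off limit of 2. Leaving out any 1 line sample gave 68 to 73.

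Genes higher in B-cell than intestinal lymphomas numbered 18, and 44 at an adjusted p of 0.05, 11 with tissue samples only, 29 with DESeq2 and 15 without any 1 intestinal lymphoma. Genes lower there numbered 0, and 3 at 0.05. Against controls, genes higher in B-cell lymphomas numbered 0, and 17 at 0.05, 2 with DESeq2 and 1 without the B-cell lymphomas whose flow cytometry field disagrees. Genes lower there numbered 0, and 14 at 0.05 and 1 without those lymphomas. Genes higher in intestinal lymphomas than controls numbered 0, and 1 at 0.05. Genes lower there numbered 15, and 44 at 0.05, 6 with tissue samples only, 25 with DESeq2, 9 to 14 without 1 sample and 9 without intestinal lymphoma 1. The tissue-only fit has fewer samples to estimate the spread and leaves out the line samples, whose spread may be technical. The causes of these changes were not tested. Of the 18 and the 15 genes, 9 and 5 were called in every fit.

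Replicate numbers did not pair the samples: same-numbered samples deviated together with a mean correlation of -0.06 over 10 pairs, against 0.01 over 86 others. With the replicate number as a block, 17 genes were higher in B-cell than intestinal lymphomas and 13 lower in intestinal lymphomas than controls. Under the block the log2 fold change turned to -0.136 for ENSCAFG00000000426, -0.076 for ENSCAFG00000013326, -0.195 for ENSCAFG00000008804 and -1.071 for ENSCAFG00000024889 (B-cell lymphomas against controls), to -0.667 for ENSCAFG00000016596 and -0.791 for ENSCAFG00000019952 (B-cell against intestinal lymphomas), and to -0.141 for ENSCAFG00000016416 (intestinal lymphomas against controls).

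Among 1362 alternative values for named genes, the block included, 52 changed sign, and in 0 of these was the value past the threshold as reported. For ENSCAFG00000000876, B-cell against intestinal lymphomas was -0.043 with the T-cell lymphoma joined and -0.079 without the B-cell lymphomas whose field disagrees. Against controls its B-cell lymphoma value was -0.188 with RLE size factors, -0.024 with filterByExpr and -0.106 with tissue only. It was -0.237 without those lymphomas and -0.187 with DESeq2. Its intestinal value against controls was 0.009 with no filter and 0.077 with the T-cell lymphoma joined. ENSCAFG00000016416 in intestinal lymphomas against controls was -0.178 with RLE size factors, -0.075 with filterByExpr, -0.121 with tissue only and -0.31 with the T-cell lymphoma joined. It was -0.117 without those lymphomas and -0.177 with DESeq2. ENSCAFG00000008804 in B-cell lymphomas against controls was -0.163 with RLE size factors, -0.085 with tissue only, -0.132 without those lymphomas and -0.164 with DESeq2. ENSCAFG00000013673 was 1.303 for the joined group against controls. ENSCAFG00000013326 in B-cell lymphomas against controls was -0.764 without those lymphomas, and ENSCAFG00000034478 was -1.465 against intestinal lymphomas joined with the T-cell lymphoma and 0.051 for that joined group against controls.

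Leaving out 1 sample at a time, B-cell against intestinal lymphomas ranged from -0.454 to 0.566 for ENSCAFG00000000876, -0.111 to 2.211 for ENSCAFG00000019952, -0.043 to 2.692 for ENSCAFG00000029396, -0.005 to 1.113 for ENSCAFG00000032530 and -0.213 to 1.281 for ENSCAFG00000034478. B-cell lymphomas against controls ranged from -0.152 to 0.283 for ENSCAFG00000000876, -0.153 to 0.183 for ENSCAFG00000006576, -0.104 to 0.187 for ENSCAFG00000008804, -0.437 to 0.589 for ENSCAFG00000018386 and -0.315 to 0.043 for ENSCAFG00000029996. Intestinal lymphomas against controls ranged from -0.532 to 0.488 for ENSCAFG00000000876, -0.101 to 1.128 for ENSCAFG00000004779, -3.675 to 0 for ENSCAFG00000013326, -0.595 to 0.373 for ENSCAFG00000016416 and -2.503 to 4.087 for ENSCAFG00000031502.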
